A study of Mus musculus with 6 samples.

Results

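The genes described here are 10 regulators of cyclic AMP (cAMP) and G protein signalling in BV2 cells: the phosphodiesterase genes Pde4a, Pde4b, Pde4d, Pde7a and Pde8a, and the RGS genes Rgs1, Rgs2, Rgs10, Rgs14 and Rgs16. They were taken by gene symbol from the 55401 genes of the deposited count table, and all 10 were found there. The rule that picks them is their names, but the set was proposed with earlier results of these data known.

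cAMP is made by adenylyl cyclases, which receptors coupled to the G protein Gs switch on and receptors coupled to Gi restrain. In macrophages and microglia a rise of cAMP acts through protein kinase A and Epac and is known to restrain the output of inflammatory cytokines. Phosphodiesterases end the signal by hydrolysing cAMP. RGS proteins (regulators of G protein signalling) speed the hydrolysis of GTP by G protein alpha subunits and so shorten the signal of the receptor itself.

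BV2 is an immortalised mouse microglial cell line. Poly(A)-selected RNA was sequenced from 3 libraries of BV2 cells given vehicle (Vehicle) and 3 of BV2 cells given lipopolysaccharide (LPS), the endotoxin of Gram-negative bacteria. The labels gave no dose, no time of treatment and no modified genotype. Nor did they tell whether libraries of 1 group stem from different cultures, and every p-value thus reflects the spread among these libraries alone, which may be technical. The series was made to look for regulators of microglial activation, and LPS is compared with Vehicle here.

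Library totals ran from 45969690 to 59023474 estimated counts. All 11 macrophage and microglia markers had means above a detection floor of 11.3 counts per library (3 of the smallest steps between low values), with summed levels of 2444 to 2739 CPM (counts per library size after TMM scaling, on the usual CPM scale) in Vehicle and 2051 to 2449 in LPS, although Cx3cr1 and Aif1 had only 2.33 and 3.20 CPM in Vehicle. Of these 11 markers 1 was called higher and 3 lower with LPS, beside 12.7% higher and 10.9% lower of all tested genes. The part of these markers in the results was not tested. Summed markers of astrocytes, neurons, oligodendrocytes, and endothelial cells with fibroblasts stayed between 0.380 and 11.1 CPM in every library. The lymphocyte markers reached at most 0.169 CPM, with Cd3e and Ncr1 at 0 in all 6 libraries. The LPS libraries were more spread than the Vehicle libraries. In a principal component analysis of log2 CPM, LPS 1, 2 and 3 lay at 82.0, 54.4 and 36.1 on the first axis (43.6% of the variance), with the Vehicle libraries between -60.3 and -52.9. On the second axis (19.3%) they lay at 62.8, -23.3 and -66.3, so that LPS 3 was nearest to Vehicle on the first axis while LPS 1 was farther from LPS 2 than LPS 3 was on both. Calls that turn on 1 library, LPS 3 or another, are given with and without it. In bulk RNA, fewer cells that express a gene and less RNA per cell cannot be told apart.

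With LPS, Pde4b rose 3.51-fold and Rgs2 fell to a level 3.18-fold lower, and these were the largest changes among the 10 genes. Pde4d, at a low level, rose 2.51-fold, and Rgs10 fell by a factor of 1.44. Of the 10 genes 9 passed the filter on low counts and were tested, and Rgs16 was not. A gene was called where its p from the quasi-likelihood test of edgeR, adjusted after Benjamini and Hochberg over the 16371 genes tested, was under 0.05. By that rule 2 of the 9 were higher with LPS and 2 were lower. The same rule called 23.6% of all tested genes, 12.7% as higher and 10.9% as lower. Changes of at least 2-fold were called for 3 of the 9 and for 7.82% of all tested genes. For 6 of the 9 genes all LPS libraries lay on 1 side of all Vehicle libraries, as they did for 40.8% of all tested genes. The median log2 fold change of the 9 was -0.17, beside -0.02 for all tested genes. For log2 fold changes ± gives the standard error (SE) of the edgeR fit, and for levels the standard deviation (SD) over 3 libraries.

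**Figure D1:**
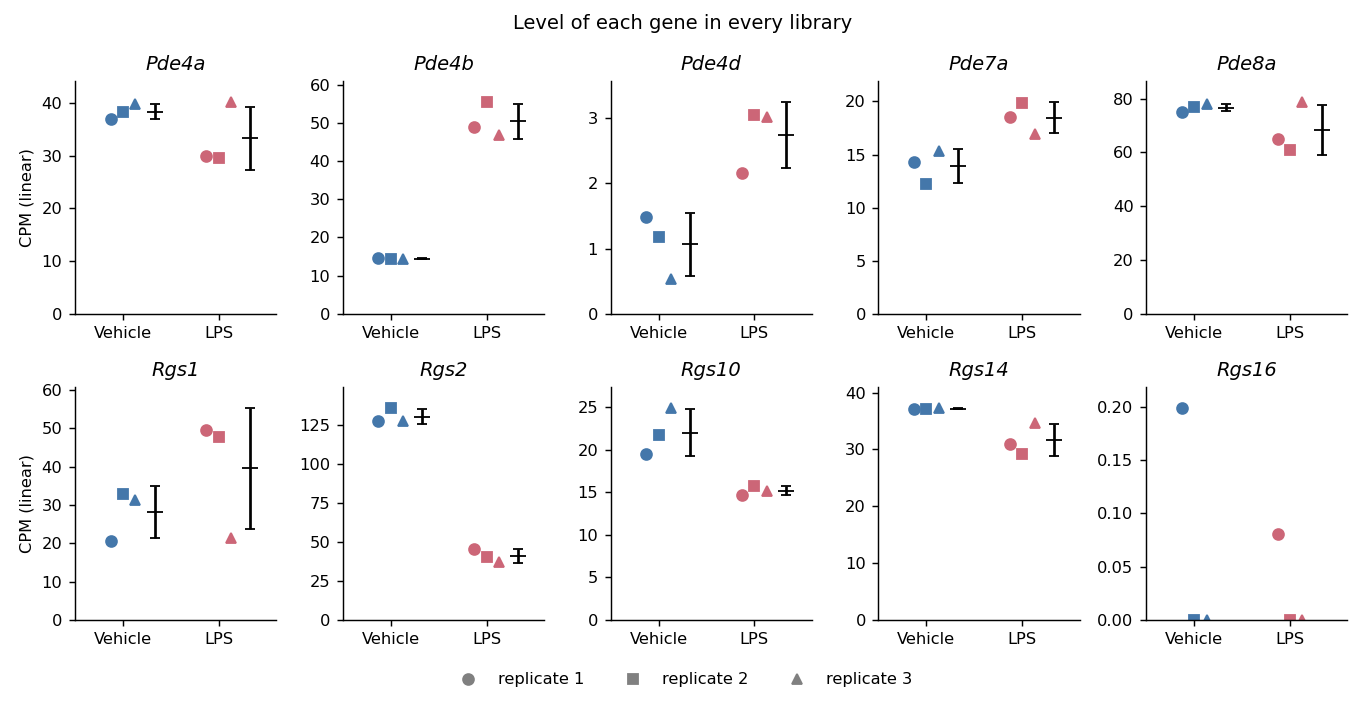
Level of each of the 10 genes in CPM on a linear axis that starts at 0, in the 3 Vehicle (blue) and the 3 LPS (red) libraries, with a different marker for each replicate number; black bars give the mean ± SD, left out for Rgs16. Pde4b lies at 14.3 to 14.5 CPM in Vehicle and at 46.8 to 55.5 in LPS, Rgs2 at 127 to 136 and 37.0 to 45.5, and LPS 3 (triangle) lies apart from LPS 1 and LPS 2 for Pde4a, Pde8a and Rgs1.

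The Pde4 genes encode the cAMP-specific phosphodiesterases that the inhibitor rolipram blocks. Pde4b (ENSMUSG00000028525) is the family member best known for its induction by LPS in monocytes and macrophages. Its level was 14.5, 14.3 and 14.3 CPM in Vehicle 1, 2 and 3, and 48.9, 55.5 and 46.8 CPM in LPS 1, 2 and 3. Every LPS library was above every Vehicle library, and the Vehicle libraries hardly differed among themselves. The log2 fold change was 1.81 ± 0.12, with a 95% interval of 1.54 to 2.08 (edgeR adjusted p = 3.47e-05). It stayed called in all 16 alternatives, with log2 fold changes of 1.72 to 1.86.

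Pde4b has several annotated start sites, and the RefSeq table used here holds 4 promoter windows for it, each from 250 bases before to 50 bases after a start. Windows were found for 7 of the 10 genes, 12 in all, and none was matched for Pde7a, Rgs1 and Rgs14. Each window was searched on both strands for the cAMP response element TGACGTCA, for its core TGACG, which also lies inside the full element, and for a loose kB pattern, GGG and CC with any 5 bases between them. The full element is found in 1.79% of all 32851 windows, the core in 20.8% and the kB pattern in 50.8%. The full element was in none of the 12 windows. The windows of Pde4b and Rgs2 are shown because these genes changed most, in opposite directions. For Pde4b they are the first window, which holds its only TGACG core, and window 3, which holds the most kB matches. Each sequence is the 250 bases before the start site on the gene's strand (GRCm38.p6), with bases that belong to a TGACG core or a kB match on either strand in capitals:
Pde4b, window 1 (chr4:102421305-102421554, plus strand): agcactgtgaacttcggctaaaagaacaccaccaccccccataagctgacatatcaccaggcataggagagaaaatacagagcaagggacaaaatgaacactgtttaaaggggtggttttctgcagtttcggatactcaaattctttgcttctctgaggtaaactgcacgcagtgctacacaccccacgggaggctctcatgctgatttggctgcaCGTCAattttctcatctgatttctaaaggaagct
Pde4b, window 3 (chr4:102587308-102587557, plus strand): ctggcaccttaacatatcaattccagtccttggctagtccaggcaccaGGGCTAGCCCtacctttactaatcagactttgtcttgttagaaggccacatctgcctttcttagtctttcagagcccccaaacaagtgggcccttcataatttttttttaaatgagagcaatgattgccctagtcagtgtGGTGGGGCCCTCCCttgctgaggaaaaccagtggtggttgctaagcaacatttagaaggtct
Rgs2 (chr1:144004150-144004399, minus strand): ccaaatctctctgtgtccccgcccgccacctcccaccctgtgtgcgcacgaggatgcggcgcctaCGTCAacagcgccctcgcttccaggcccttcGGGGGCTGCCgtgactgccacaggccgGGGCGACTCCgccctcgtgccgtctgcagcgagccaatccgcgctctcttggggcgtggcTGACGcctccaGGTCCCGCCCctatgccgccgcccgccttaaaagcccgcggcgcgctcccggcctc
In Pde4b window 1 the core lies at -34 to -30 on the opposite strand, counted from the start site, and no kB match is present. Window 3 of Pde4b has 6 kB matches that overlap at 2 places, from -202 to -193 and from -62 to -49, and the other two windows of Pde4b have 1 each. The Rgs2 window has TGACG cores at -185 to -181 and at -67 to -63 and 3 kB matches. Genes that changed less or were not detected have kB matches too, 6 in the Rgs10 window and 5 in the Rgs16 window. The Pde4d window has neither a core nor a kB match. Whether these motifs bear on the changes was not tested. A match is a run of letters and does not show that a factor binds there, and the build that the authors counted on is not given in the sources used here.

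Pde4a (ENSMUSG00000032177) and Pde4d (ENSMUSG00000021699) encode the same kind of enzyme. Pde4d was low, with 90, 57 and 25 estimated counts (1.49, 1.17 and 0.528 CPM) in Vehicle and 108, 161 and 147 (2.16, 3.05 and 3.02 CPM) in LPS. All LPS libraries were above all Vehicle libraries, but the Vehicle values spread widely. The log2 fold change was 1.33 ± 0.37 (edgeR adjusted p = 0.0340). Pde4d was not called once Vehicle 2, Vehicle 3, LPS 2 or LPS 3 was left out, where edgeR gave adjusted p-values of 0.0912, 0.0884, 0.104 and 0.0623, and over all alternatives its adjusted p ran from 0.0234 to 0.104.

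Pde4a was the main Pde4 gene of the Vehicle cells and did not pass the test. Its level was 36.8, 38.3 and 39.8 CPM in Vehicle 1, 2 and 3, and 30.0, 29.6 and 40.1 CPM in LPS 1, 2 and 3. LPS 1 and LPS 2 lay below all Vehicle libraries and LPS 3 above them, so that the groups overlapped. With all libraries the log2 fold change was -0.21 ± 0.14, with a 95% interval of -0.53 to 0.12 (edgeR adjusted p = 0.336). Without LPS 3 it was -0.37 and was called (edgeR adjusted p = 0.0349, where all alternatives ran from 0.0349 to 0.629).

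Within the Pde4 family Pde4b took a larger share in every LPS library than in any Vehicle library. Per kilobase of the longest annotated transcript, Pde4b made up 28.5%, 27.7% and 27.5% of the summed level of Pde4a, Pde4b, Pde4c and Pde4d in the Vehicle libraries and 60.7%, 63.7% and 52.8% in the LPS libraries. Its mean share was 27.9 ± 0.56% in Vehicle and 59.1 ± 5.61% in LPS (SD, n = 3), and that of Pde4a was 68.8 ± 1.87% and 35.9 ± 5.39% (SD, n = 3). An exact permutation test of the Pde4b share gave p = 0.10, two-sided, the smallest that 3 libraries against 3 can give, and 0.15 when adjusted over the 3 shares tested. Such a share does not depend on how libraries are scaled to each other, but it does depend on which transcript gives a gene its length. The summed level of the 4 genes was 11.96 ± 0.15 CPM per kilobase in Vehicle and 19.9 ± 0.98 in LPS (SD, n = 3).

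**Figure D2:**
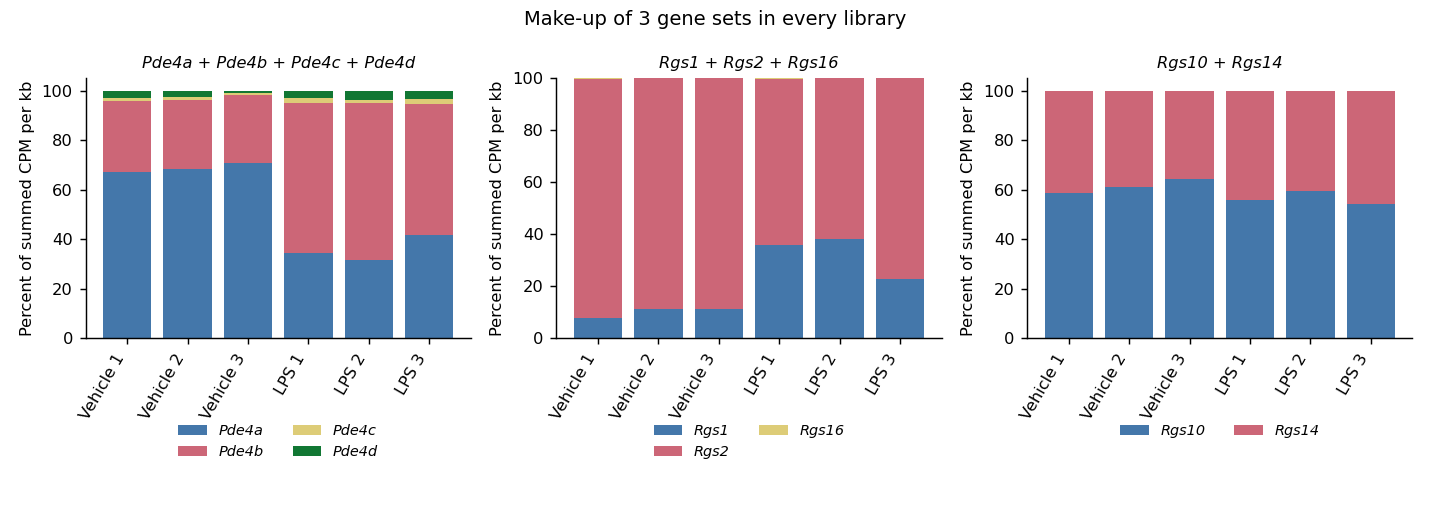
Share of each gene in the summed level (CPM per kilobase of the longest transcript, in percent) of the Pde4 genes, of Rgs1, Rgs2 and Rgs16, and of Rgs10 and Rgs14, as a stacked bar for each of the 6 libraries. Pde4b takes 27.5% to 28.5% of the Pde4 bar in Vehicle and 52.8% to 63.7% in LPS, and Rgs1 takes 7.66% to 11.3% of its bar in Vehicle and 23.0% to 38.1% in LPS.

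Pde7a and Pde8a encode cAMP-specific phosphodiesterases of high affinity that rolipram does not block. Pde8a (ENSMUSG00000025584) had the highest level per kilobase of the 5 phosphodiesterase genes in both groups. Its level was 75.2, 77.0 and 77.9 CPM in Vehicle 1, 2 and 3, and 64.9, 61.0 and 78.7 CPM in LPS 1, 2 and 3. As for Pde4a, LPS 1 and LPS 2 were below all Vehicle libraries and LPS 3 was above them. The log2 fold change of Pde8a was -0.17 ± 0.11 (edgeR adjusted p = 0.322), and -0.29 without LPS 3 (edgeR adjusted p = 0.0412, where all alternatives ran from 0.0412 to 0.640).

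Pde7a (ENSMUSG00000069094) had 14.3, 12.2 and 15.4 CPM in Vehicle and 18.6, 19.9 and 16.9 CPM in LPS 1, 2 and 3. Every LPS library of Pde7a was above every Vehicle library. Its log2 fold change of 0.41 ± 0.14, with a 95% interval of 0.08 to 0.74, did not pass the test (edgeR adjusted p = 0.0774), and none of the 16 alternatives called it. An annotated antisense gene shares 48 exon bases with Pde7a and had 0 counts in every library.

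Among all 21 cyclic nucleotide phosphodiesterase genes looked at, the share of Pde4b in the summed level per kilobase was 6.68 ± 0.17% in Vehicle and 21.2 ± 2.28% in LPS (SD, n = 3). Pde8a held 40.4 ± 0.18% in Vehicle and 32.3 ± 3.52% in LPS (SD, n = 3), above any other gene in either group. The sum itself was 49.9 ± 0.88 CPM per kilobase in Vehicle and 55.4 ± 1.56 in LPS (SD, n = 3). Of the 16 phosphodiesterase genes outside the 10, 9 were tested, 1 was called lower and none higher, and their median change was 0.14 (log2). The gene that fell was Pde7b, a relative of Pde7a, from 22.4 ± 1.73 to 8.72 ± 1.61 CPM (SD over 3 libraries; log2 fold change -1.36 ± 0.17, edgeR adjusted p = 0.000765). Pde4c, singled out after its values were seen, had 32, 31 and 12 estimated counts in Vehicle and 72, 48 and 63 in LPS 1, 2 and 3. Its log2 fold change of 1.33 ± 0.45 did not pass the test (edgeR adjusted p = 0.0669).

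**Figure D3:**
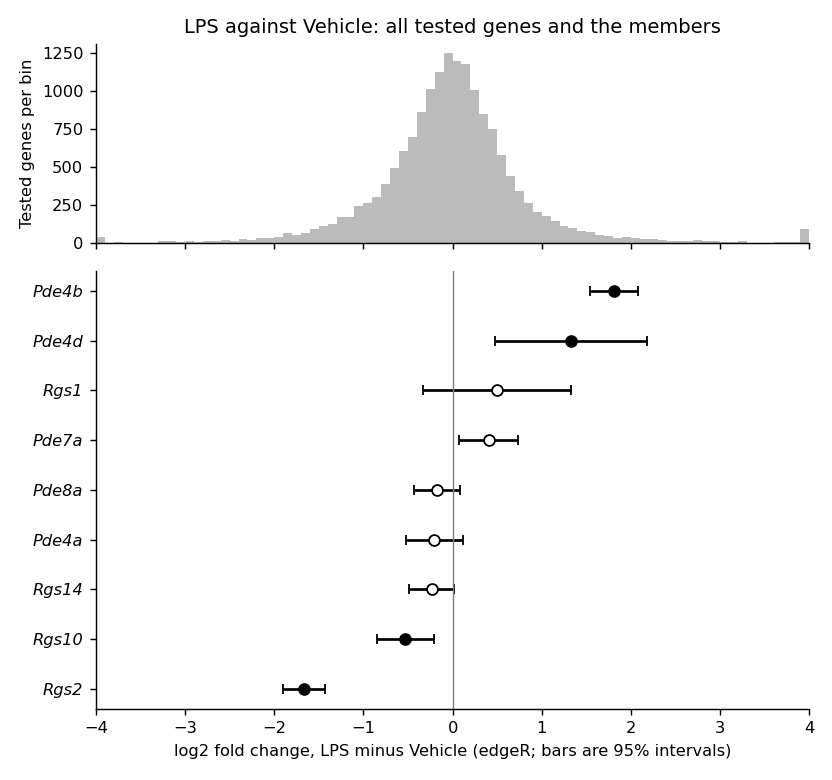
Below, the log2 fold change (LPS minus Vehicle) of the 9 tested genes from edgeR with 95% intervals, filled where the adjusted p was under 0.05. Above, the number of all tested genes in bins of the same axis, with genes beyond either end counted in the last bin. Pde4b at 1.81 and Rgs2 at -1.67 lie in the tails of the distribution, while Pde4a, Pde8a and Rgs14 lie between -0.24 and -0.17.

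Rgs1, Rgs2 and Rgs16 belong to the R4 subfamily, small proteins that consist of little more than the RGS domain. Rgs2 (ENSMUSG00000026360) prefers the alpha subunit Gq as its substrate. Its level was 127, 136 and 127 CPM in Vehicle 1, 2 and 3, and 45.5, 40.1 and 37.0 CPM in LPS 1, 2 and 3. Every LPS library was below every Vehicle library, by a wide margin. The log2 fold change was -1.67 ± 0.10, with a 95% interval of -1.91 to -1.43 (edgeR adjusted p = 2.76e-05). All 16 alternatives called Rgs2 lower, with log2 fold changes of -1.76 to -1.61.

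Rgs1 (ENSMUSG00000026358), known for limiting chemokine receptor signals through Gi and Gq in leukocytes, did not pass the test. Its level was 20.5, 32.8 and 31.3 CPM in Vehicle 1, 2 and 3, and 49.5, 47.7 and 21.4 CPM in LPS 1, 2 and 3. LPS 1 and LPS 2 were above all Vehicle libraries, whereas LPS 3 lay near the lowest of them, Vehicle 1. The log2 fold change was 0.50 ± 0.35, with a 95% interval of -0.34 to 1.33 (edgeR adjusted p = 0.359). Without LPS 3 Rgs1 was called higher, at 0.79 on the log2 scale (edgeR adjusted p = 0.0244, where all alternatives ran from 0.0244 to 0.658).

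Rgs16 (ENSMUSG00000026475), an inhibitor of Gi and Gq signals, was at the limit of detection. It had 12 estimated counts in Vehicle 1, 4 in LPS 1 and 0 in the other four libraries, against a floor of 11.3 counts per library. The group means of 4.0 and 1.33 counts are both under that floor, so no fold change is given and a difference was not detectable at this depth. Rgs16 shares 236 exon bases with an antisense gene that itself had at most 8 counts, and without strand marking their reads cannot be told apart.

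The summed level of this trio was 47.9 ± 2.39 CPM per kilobase in Vehicle, most of it Rgs2, but 20.3 ± 3.94 with LPS (SD, n = 3). Rgs1, which itself was not called, made up 7.66%, 11.1% and 11.3% of the summed level per kilobase in Vehicle 1, 2 and 3, against 35.9%, 38.1% and 23.0% in the 3 LPS libraries in the same order. The groups did not overlap in this share with LPS 3 included, in which Rgs1 itself lay near Vehicle 1. Rgs2 is part of the sum and fell from a mean of 43.1 to 13.5 CPM per kilobase. The share of Rgs1 would rise from that fall alone. Rgs3, another R4 member at 4.45 CPM per kilobase in Vehicle and 10.8 in LPS, was left out of this sum. The mean share of Rgs1 was 10.02 ± 2.05% and 32.3 ± 8.15% (SD, n = 3), and the two-sided exact permutation test gave p = 0.10 (0.15 adjusted over the 3 shares), which does not pass 0.05 and is the smallest it can give.

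Rgs10 and Rgs14 belong to the R12 subfamily, which acts on Gi. Rgs10 (ENSMUSG00000030844) is a small protein abundant in microglia. Its level was 19.4, 21.7 and 24.9 CPM in Vehicle 1, 2 and 3, and 14.7, 15.8 and 15.2 CPM in LPS 1, 2 and 3. All LPS libraries were below all Vehicle libraries and close to each other. The log2 fold change was -0.53 ± 0.14 (edgeR adjusted p = 0.0258). Rgs10 was no longer called when Vehicle 2, Vehicle 3, LPS 1 or LPS 2 was dropped, at edgeR adjusted p-values of 0.0767, 0.0873, 0.0752 and 0.0631, while the log2 fold change stayed between -0.62 and -0.44.

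Rgs14 (ENSMUSG00000052087), a larger protein that also carries Ras-binding and GoLoco domains, had 37.2 CPM in each of the 3 Vehicle libraries. In LPS 1, 2 and 3 it had 31.0, 29.2 and 34.6 CPM, all below Vehicle. Its log2 fold change of -0.24 ± 0.11, with a 95% interval of -0.49 to 0.01, did not pass the test (edgeR adjusted p = 0.161), and none of the 16 alternatives called it. The share of Rgs10 in the summed level per kilobase of Rgs10 and Rgs14 was 61.4 ± 2.89% in Vehicle and 56.6 ± 2.62% in LPS (SD, n = 3). These shares overlapped between the groups (two-sided exact permutation p = 0.20, also 0.20 adjusted over the 3 shares).

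Per kilobase of transcript, the order of the levels in Vehicle was Rgs2 at 43.1 CPM per kilobase, Rgs10 at 25.0, Pde8a at 20.2, Rgs14 at 15.6, Pde4a at 8.23, Rgs1 at 4.83, Pde4b at 3.34, Pde7a at 2.21, Pde4d at 0.252 and Rgs16, under its floor, at 0.028. No neighbours in that order had overlapping ranges over the 3 libraries. In LPS the order was Pde8a at 17.9, Rgs10 at 17.3, Rgs2 at 13.5, Rgs14 at 13.3, Pde4b at 11.7, Pde4a at 7.14, Rgs1 at 6.77, Pde7a at 2.93, Pde4d at 0.652 and Rgs16 at 0.011. The ranges of Pde8a and Rgs10, of Rgs2 and Rgs14, of Rgs14 and Pde4b, and of Pde4a and Rgs1 overlapped in LPS. Pde4b stood below Pde4a in Vehicle and above it in LPS, and Rgs2 stood first in Vehicle and below Pde8a and Rgs10 in LPS.

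**Figure D4:**
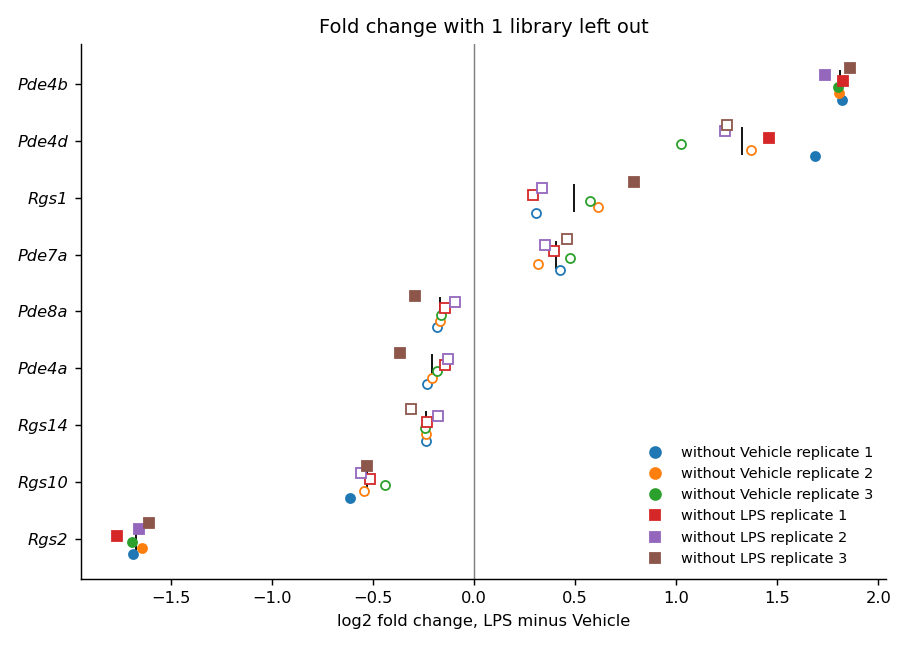
Log2 fold change (LPS minus Vehicle) of the 9 tested genes with all libraries (black tick) and with 1 library left out (circles for Vehicle, squares for LPS), filled where the adjusted p was under 0.05. All 6 points of Pde4b and of Rgs2 are filled, and for Pde4a, Pde8a and Rgs1 the point without LPS replicate 3 is the only filled one.

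Without LPS 3, 2 of the 9 genes were called higher (Pde4b and Rgs1) and 4 lower (Rgs2, Rgs10, Pde4a and Pde8a), where 26.4% of all tested genes were called, 14.3% higher and 12.1% lower. Pde4d then had a log2 fold change of 1.25 and was not called. Why LPS 3 lay apart for these genes was not tested.

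Of the 16 RGS genes outside the 10, 8 were tested, 2 rose and 1 fell, and their median change was 0.10 (log2). Rgs9, best known from photoreceptors and the striatum, rose from 0.414 ± 0.21 to 3.56 ± 0.69 CPM (SD over 3 libraries; log2 fold change 3.16 ± 0.41). In Vehicle 1, 2 and 3 Rgs9 had only 11, 28 and 23 estimated counts, the first under the floor of 11.3. It had 189, 217 and 136 in LPS 1, 2 and 3. Rgs3, another R4 member, rose from 20.9 ± 3.04 to 50.8 ± 6.91 CPM (SD, n = 3). Rgs11, of the same subfamily as Rgs9, fell with a log2 fold change of -0.90 ± 0.17. Of the summed level of all 21 RGS genes per kilobase, Rgs2 held 29.4 ± 3.51% in Vehicle and 11.8 ± 1.57% in LPS (SD, n = 3). Rgs19, singled out after its values were seen, held the largest mean share in both groups, 33.6 ± 4.76% and 42.1 ± 6.13% (SD, n = 3), and did not pass the test (edgeR adjusted p = 0.935).

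The other genes of the pathway were taken from 11 lists of 146 genes, the other phosphodiesterase and RGS genes included. Of the 113 that were tested, 19 rose and 13 fell, the median change was -0.03 (log2), and 12 rose without Vehicle 2. Beside these counts and those of each list stand 12.7% higher and 10.9% lower over all tested genes. Without Vehicle 2 the number of genes called higher also dropped over all genes, from 2082 to 1291. Among receptors that couple to Gs, 3 of 7 tested rose and none fell, with a median of 0.41. Ptgir, the prostacyclin receptor, rose from 101 ± 7.08 to 317 ± 6.17 CPM (SD over 3 libraries; log2 fold change 1.65 ± 0.09). The adenosine receptor gene Adora2b had 1.78 ± 0.24. Adora2a had 8, 0 and 0 estimated counts in Vehicle, under the floor, and 128, 104 and 106 in LPS 1, 2 and 3.

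Among receptors that couple to Gi, 4 of 16 tested rose and 5 fell, with a median of -0.31. Gpr183, the oxysterol receptor, and S1pr1, a receptor for sphingosine 1-phosphate, fell with log2 fold changes of -3.26 ± 0.23 and -2.86 ± 0.29. P2ry12, the ADP receptor of resting microglia, had 42, 46 and 42 counts in Vehicle and 0, 6 and 12 in LPS. P2ry12 (edgeR adjusted p = 0.0194) was not called when Vehicle 2, Vehicle 3, LPS 1 or LPS 2 was left out, with limma voom (adjusted p = 0.0644) or with edgeR's earlier test (0.105), where all alternatives ran from 0.0168 to 0.105.

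Of 11 tested G protein alpha subunit genes, 2 rose and 2 fell, with a median of -0.22. Gnaq, which encodes the Gq subunit on which Rgs2 acts, fell from 85.7 ± 2.52 to 50.8 ± 5.52 CPM (SD over 3 libraries; log2 fold change -0.75 ± 0.11, edgeR adjusted p = 0.00150). Gnai2, which encodes a Gi subunit, fell with -0.44 ± 0.08. Gna13 rose with 0.68 ± 0.15 and Gnas, which encodes Gs, with 0.36 ± 0.08. Gna13 lost its call without Vehicle 2 or Vehicle 3 and Gnas without Vehicle 1 or Vehicle 2, with adjusted p-values up to 0.0603 and 0.0773. Of 12 tested beta and gamma subunit genes, 1 rose and 2 fell, with a median of 0.00. Gng10 had -0.53 ± 0.15, Gng12 -0.39 ± 0.09 and Gng5 0.36 ± 0.11, and none of these calls held in every alternative (adjusted p up to 0.125, 0.0696 and 0.162). Without Vehicle 2 or Vehicle 3 no beta or gamma subunit gene was called, and without Vehicle 1, LPS 1 or LPS 2 only 1, which was lower. Calls over all genes dropped as well, from 3864 to 2344, 2710, 2581, 2844 and 2702 in the same order of libraries left out.

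None of 5 tested adenylyl cyclase genes passed edgeR's test, with a median of 0.18, although 1 had an unadjusted p under 0.05 (higher) and was called without LPS 2. Of 9 genes of protein kinase A, 1 fell and none rose, with a median of -0.25. That gene was Prkar2a, a regulatory subunit, with -0.49 ± 0.11, which lost its call without Vehicle 1 or Vehicle 2 (edgeR adjusted p up to 0.0637, against 0.0142). Of 14 genes for Epac, A-kinase anchors and the cAMP exporter, 2 rose and none fell, with a median of -0.14. These were the anchors Akap6 (0.55 ± 0.15) and Akap13 (0.41 ± 0.08). Akap6 lost its call when libraries were scaled by total counts only, and without Vehicle 1, Vehicle 2 or Vehicle 3, with adjusted p-values up to 0.102.

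Among CREB family factors, their coactivators and salt-inducible kinases, 4 of 11 tested rose and none fell, with a median of 0.24. Crem, which also gives rise to the inducible repressor ICER, rose from 7.40 ± 1.17 to 16.6 ± 1.33 CPM (SD over 3 libraries; log2 fold change 1.16 ± 0.17). Sik3 had 0.75 ± 0.12, Creb1 0.68 ± 0.16 and the coactivator gene Crtc2 0.43 ± 0.12. Creb1 was not called without Vehicle 1, Vehicle 3, LPS 1 or LPS 2, nor Crtc2 without Vehicle 1, Vehicle 2, Vehicle 3 or LPS 2 or with scaling by total counts only (0.0833), with edgeR adjusted p-values up to 0.0684 and 0.117, and 2 members rose without Vehicle 1, Vehicle 3 or LPS 2. Of 11 tested receptor kinases, arrestins and other modulators, 1 rose and 1 fell, with a median of 0.08. They were Gpsm1 (0.62 ± 0.16) and Gpsm2 (-0.68 ± 0.13), and Gpsm1 lost its call without Vehicle 2, Vehicle 3, LPS 1 or LPS 2 (adjusted p up to 0.0944).

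Where a list had 0 calls in a direction in edgeR's test, DESeq2 and limma voom also made 0 calls there. At an unadjusted p under 0.05, edgeR had 1 more phosphodiesterase gene higher and 1 Gs-coupled receptor gene lower, and 0 genes in those directions for protein kinase A, the Epac and anchor list, and the CREB list.

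**Figure D5:**
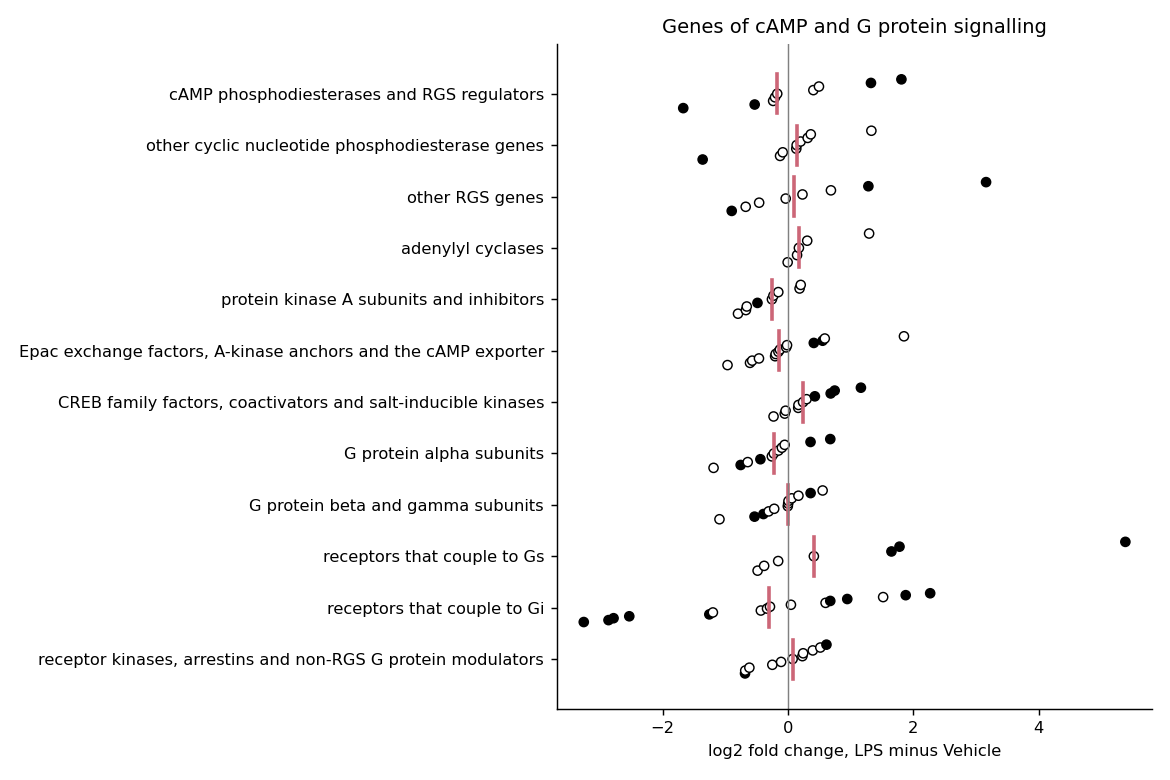
Log2 fold change (LPS minus Vehicle) of each tested gene of the 10 genes and of the 11 pathway lists, filled where the adjusted p was under 0.05, with the median of each list as a red line. Filled points lie on both sides of 0 for the receptors that couple to Gi (4 higher, 5 lower). They lie on the higher side only for the CREB list (4), the receptors that couple to Gs (3) and the Epac and anchor list (2). They lie on the lower side only for the other phosphodiesterase genes (1) and protein kinase A (1).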

How the data were processed

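Libraries of poly(A)-selected RNA were made with a NEBNext Ultra kit, with no statement that strand was marked, and read on an Illumina NovaSeq machine, per the labels' protocols. The submitters' processing notes name Bowtie2 2.2.8, HISAT2, StringTie 1.3.1 and DESeq2, with no role or order. The authors deposited estimated counts (expected counts) for each gene and library. All were whole numbers, so rounding changed nothing. Low values piled up at multiples of 3.74 to 3.78 counts, so a count is not a read, and the floor used here is 3 such steps. It covers counting error only, since PCR copies cannot be told from molecules here. All sample columns were mapped by name, and 0 were left over.

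Symbols and the longest transcript of each gene came from GENCODE M21 by Ensembl identifier (55141 of 55401 genes matched). Promoter windows came from RefSeq (GRCm38.p6).

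All genes were tested together with edgeR 4.0.16 in R 4.3.3: filterByExpr (minimum count 10, minimum total 15), TMM scaling, and the two-sided quasi-likelihood F-test of edgeR version 4 with robust estimates. Genes with a Benjamini-Hochberg adjusted p under 0.05 were called. The SE is the log2 fold change over the square root of F, and 95% intervals use the fit's total degrees of freedom (prior and residual). Principal components used log2 CPM with a prior count of 2. The fit was checked on simulated counts, drawn with the same spread setting for every gene in both groups, which need not match these libraries. Alternatives were other scalings and filters, DESeq2 1.42.0, limma 3.58.1 voom, a replicate block, and fits without 1 library at a time. Dividing the counts by the step and edgeR's earlier test were added after seeing the data. Shares within a gene family were compared by exact permutation tests (scipy 1.17.1), and figures drawn with matplotlib 3.10.9.

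The genes and lists were chosen with earlier results of these data known. All 10 genes are named, and of each pathway list up to 4 called genes with the largest change, at least 1 each way where both occurred. Some genes that this rule or the marker lists hold are not reported here.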

Additional observations from a re-analysis of the deposited data

How the results depend on the processing

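Over 16 alternatives the 9 tested genes gave 144 log2 fold changes. None changed sign, 131 kept their side of the threshold, 10 lost a call (Pde4d and Rgs10) and 3 gained one (Pde4a, Pde8a and Rgs1, each without LPS 3). Of the 428 values for the 27 list genes that the naming rule picks, 53 lost a call and none changed sign. One of the 10 genes was higher, in place of 2, with the replicate block and with edgeR's earlier test (1 in each), where Pde4d had adjusted p-values of 0.0593 and 0.0574. With 1 library left out, 1 to 2 of the 10 were higher and 1 to 4 lower, and over all genes 1291 to 2450 were higher and 1053 to 2085 lower. In the pathway lists 12 to 20 genes were then higher and 9 to 16 lower. Of the protein kinase A genes 3 were lower with total counts and 2 with DESeq2, in place of 1, and of the modulators 2 were lower with either, in place of 1. With the replicate block 2 modulators were higher, in place of 1, and 1 gene of the Epac and anchor list was lower, in place of 0. With total counts 1 gene of that list was higher, in place of 2, and Gng5 was not called under any other scaling, without the filter, with the replicate block or with edgeR's earlier test.

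With total counts in place of TMM, 42.2% of called genes were higher, against 53.9%. The differences in shares kept their sign in all settings. The replicate numbers showed no clear pairing: deviations from the group means correlated at 0.07, 0.05 and 0.06 between libraries with the same number, although each library correlated best with the one of its own number. The replicate block gave 2033 higher and 1783 lower genes, and among the 10 genes the one call it changed was that of Pde4d. The sign-flip test over number pairs cannot go below 0.25, and gave that value for each of the 3 shares. Rgs16 was under the detection floor. Pde4d had 25 to 161 counts in a library, and whether depth or the spread of its Vehicle libraries bears on its call was not tested.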
